A study of Mus musculus with 158 samples.

Results

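The promoters of 55 ribosomal protein genes were examined for DNase I hypersensitivity, 55 of the 21728 protein-coding genes on the autosomes and chromosome X. They comprise 31 genes of the large subunit and 24 of the small subunit and lie on 17 chromosomes. A member was assigned the hotspots, that is the regions in which DNase I cleavage exceeded the local background at a false discovery rate (FDR) of 5%, that lay within 1 kb of its annotated transcription start. Where several lay there, the hotspot nearest to the start was used. The genes were chosen by family and no measured value was a criterion, but earlier results of these data were known at that time. They are not the whole family, as 25 further ribosomal protein genes were kept for comparison.

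Ribosomal proteins assemble with ribosomal RNA into the large and small subunits of the ribosome, and comparable amounts of nearly all of them are needed in every growing cell. Their genes are scattered over the genome and are transcribed at high rates in most cell types. Their promoters usually lack a TATA box and start transcription at a cytosine within a tract of pyrimidines, and the mRNA ends that result carry the 5′ terminal oligopyrimidine sequence through which translation is controlled by mTOR.

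DNase-seq of adult F1 hybrid mice was used in 20 conditions comprising 138 libraries. All dams were C57BL/6J (B6), so every hybrid carries that genome. The hybrids are named by dam and sire. The sires of B6x129 and B6xC3H (C3H/HeJ) were of classical inbred strains and those of the other hybrids of wild-derived strains, with CAST/EiJ in B6xCAST, PWK/PhJ in B6xPWK and SPRET/EiJ in B6xSPRET. Whole liver, kidney and lung were typically pooled from several mice, and B cells were taken from femoral bone marrow of females of 8 weeks by removal of cells bearing CD43 or CD11b, so that other cells can remain. The authors pooled all libraries of a hybrid and tissue before hotspots were called, so each condition is 1 set, and a tissue's 5 sets stand in for repeats. A further set each of DNase-seq and CTCF ChIP-seq came from B6xCAST mouse embryonic stem cells (mESCs) grown in a mixture of 2i medium and serum-containing mESC medium, without repeats.

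The adult sets held 78387 to 295565 hotspots, on average fewest in B cells, and the mESC set held 115267. Pooled libraries numbered 2 to 14 per set, and the number of reads behind a single hotspot is not in the deposited sets. In most sets the paper counts fewer biological replicates than there were libraries. It also lists the reads analysed per set, which differ between sets and were not used here. For each of liver, kidney, lung and B cells, 5 of 5 marker genes had a hotspot within 1 kb of their start in every set of their own tissue. These markers were not all specific: the B cell markers had a hotspot in 44 of 75 possible cases in the other tissues, the liver markers in 20, the lung markers in 16 and the kidney markers in 9. All 5 mESC markers had one in mESCs, and they also had one in 27 of 100 possible cases in the adult sets. Hotspots present in a tissue cannot be assigned to its cell types, and fewer cells with an open promoter cannot be told apart from less cleavage per cell.

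The promoter sequences below are shown for the members on which the results turn: 3 whose start no adult set covers (Rps21, Rpl13a and Rpl15) and, of the members called by the test of width, those with the greatest difference in liver (Rpl41) and in B cells (Rps6). Each runs from 120 bases before to 20 bases from the RefSeq start onwards (RefSeq, GRCm38.p6, 5′ to 3′). Capitals mark matches on either strand to CCGGAAG (ETS), GGGCGG (SP/KLF) or CCAAT (NFY), and in Rps6 also the longer run of capitals, a palindrome of 10 bases. Rps29 and Rpl3, also without a covered start, are named only.
Rps21, chr2:180257259-180257398, forward strand: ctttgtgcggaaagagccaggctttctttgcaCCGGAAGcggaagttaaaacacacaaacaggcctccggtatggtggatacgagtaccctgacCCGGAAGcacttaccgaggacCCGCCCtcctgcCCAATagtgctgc
Rpl13a, chr7:45128726-45128865, reverse strand: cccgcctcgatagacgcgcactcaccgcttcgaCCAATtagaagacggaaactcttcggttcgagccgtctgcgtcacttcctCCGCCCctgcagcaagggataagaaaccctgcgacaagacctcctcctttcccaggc
Rpl15, chr14:18270967-18271106, reverse strand: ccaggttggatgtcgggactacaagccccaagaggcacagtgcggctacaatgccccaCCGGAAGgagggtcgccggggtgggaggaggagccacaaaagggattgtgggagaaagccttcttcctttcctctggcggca
Rpl41, chr10:128549149-128549288, reverse strand: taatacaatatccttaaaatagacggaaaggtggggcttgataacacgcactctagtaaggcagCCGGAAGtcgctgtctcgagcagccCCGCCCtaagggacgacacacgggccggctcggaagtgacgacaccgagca
Rps6, chr4:86857348-86857487, reverse strand: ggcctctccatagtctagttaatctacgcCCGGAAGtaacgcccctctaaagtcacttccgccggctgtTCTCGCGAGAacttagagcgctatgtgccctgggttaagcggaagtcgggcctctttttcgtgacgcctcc
Rps21 carries the ETS sequence on both sides of its printed stretch's centre, Rps6 carries it upstream of the palindrome, and the start base in Rpl15, Rps6 and Rps21 is a C followed by pyrimidines. The RefSeq start lay 2 bp from the GENCODE start used for the hotspots in Rps21, 16 bp in Rpl13a, 45 bp in Rps6, 81 bp in Rpl15 and 137 bp in Rpl41.

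Of the 55 members, 45 had an entry in the RefSeq promoter table, which spans 250 bases before to 50 after the start, and 16433 protein-coding genes in all had one. The ETS sequence CCGGAAG was found in 18 of 45 members (40.0%, Wilson 95% interval 27.0 to 54.5), against 12.5% of all promoters. The palindrome shown in Rps6 occurred in 6 members, Rpl10a, Rpl12, Rpl26, Rps6, Rps19 and Rps28 (13.3%, interval 6.26 to 26.2), against 0.718% of all promoters. The TATA sequence TATAAA was present in 2 members, Rps2 and Rps28 (4.44%), against 12.9% of promoters. From 100 bases before to 50 after the start the shares with TATAAA were 4.44% and 6.99%, and those with CCGGAAG 28.9% and 9.55%. GGGCGG was present in 55.6% of members and 48.8% of promoters, CCAAT in 33.3% and 38.7%, the E-box CACGTG in 8.89% and 8.12%, the YY1 sequence AAGATGGC in 4.44% and 3.31%, and the palindromic NRF1 consensus in 2.22% and 1.39%. Both strands were searched, and a promoter may hold several motifs. These shares are descriptions of letters in a window and were not tested.

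The start base followed the terminal pyrimidine pattern, a C with at least 4 further C or T, in 10 of 45 members (22.2%, interval 12.5 to 36.3) and in 2.19% of promoters. Since only 30 of the 45 RefSeq starts lay within 50 bp of the GENCODE start, the longest run of C or T from 50 bases before to 50 after the RefSeq start was also taken. Its median was 11 bases in members and 6 in all promoters, and a run of 10 or more occurred in 34 members (75.6%) against 17.5% of promoters. The median GC content was 57.7% in members and 57.0% in all promoters. The median of the members' mean widths over the adult sets was 1084 bp for the 6 members with the palindrome and 1097 bp for 36 without it.

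Almost every member had a hotspot near its start in every tissue. The single sets held 51 to 55 members with one in B cells, 53 to 55 in liver, 52 to 53 in lung and 53 to 54 in kidney. All 5 B cell sets had a hotspot at 51 members, all 5 liver sets at 53, and all 5 sets at 52 in lung as well as in kidney. The corresponding shares of all protein-coding promoters were 52.5% in B cells, 61.8% in liver and in lung, and 64.5% in kidney. Over all 20 adult sets, 51 of 55 members (92.7%) had a hotspot throughout, against 48.9% of promoters, and the annotated start itself lay inside the hotspot in all 20 for 49 members (89.1%) against 42.4%. Counted as a hotspot in all 5 sets of a tissue, both the members and all promoters were fewest in B cells. Per set, the members with a hotspot averaged fewest in lung, at 52.4 against 53.2 in B cells.

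Other gene groups that most cells express were also mostly covered. A hotspot in all 20 sets was found for 31 of 31 proteasome subunits, 28 of 28 ribosome biogenesis factors, 31 of 36 complex I subunits, 8 of 10 elongation factors and 21 of 25 further ribosomal protein genes outside the 55. Within the members, 28 of 31 large subunit genes and 23 of 24 small subunit genes had one throughout.

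The members without a hotspot in at least 1 adult set were Rpl3, whose product reaches towards the peptidyl transferase centre, Rpl13a, Rpl15 and Rps21. Rpl3 had a hotspot within 1 kb in 9 of 20 sets, Rps21 in 5, Rpl13a in 13 and Rpl15 in 18. Together with Rps29, a zinc-binding protein of the small subunit, they were the 5 members whose start was covered in none of the 20 adult sets. All 5 starts were covered in mESCs, by hotspots of 479 bp at Rpl3, 704 bp at Rps21, 579 bp at Rpl13a, 480 bp at Rpl15 and 382 bp at Rps29. In the adult sets the hotspots assigned to these genes were narrow pieces beside the start, of 50 to 189 bp at Rpl3, 89 to 300 bp at Rps21, 73 to 735 bp at Rpl13a, 52 to 553 bp at Rpl15 and 219 to 421 bp at Rps29.

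The edges of these pieces that faced the start coincided to the base between sets. At Rps29 the upstream piece ended 528 bp before the start in 20 of 20 sets, and the downstream piece began 673 bp after it in 18 of the 18 sets that had one. At Rpl15 the upstream edge lay 520 bp before the start in 16 of 18 sets and the downstream edge 781 bp after it in 3 of 4 sets. At Rpl3 the edges lay 865 bp before the start in 4 of 4 sets and 636 bp after it in 9 of 9. Within 1 kb, Rpl13a had an upstream piece only, ending 870 bp before the start in 13 of 13 sets, and Rps21 a downstream piece only, beginning 619 bp after the start in 5 of 5 sets. The stretch without any hotspot between both shared edges was 1200 bp at Rps29, 1300 bp at Rpl15 and 1500 bp at Rpl3.

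Of all distinct hotspot edges in the adult sets, 0.952% were found in 3 or more of the 20 sets and 0.0344% in 10 or more, as at Rps29, Rpl13a and the upstream edge of Rpl15. Of the 12339 promoters whose start was covered in mESCs, 681 (5.52%) were covered in none of the adult sets, and 309 of these 681 (45.4%) had a facing edge shared by at least 3 sets and by most of the sets with a piece there. Among the members 5 of 54 (9.26%) were covered in mESCs and in no adult set. In the comparison lists this was so for 4 of 25 further ribosomal protein genes, 3 of 10 elongation factors and 4 of 36 complex I subunits, but for 0 of 31 proteasome subunits and 0 of 28 ribosome biogenesis factors. How the region between the edges came to hold no hotspot was not tested and is not given in the sources used here. The absence of a hotspot at these 5 starts was not read as a closed promoter.

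**Figure D1:**
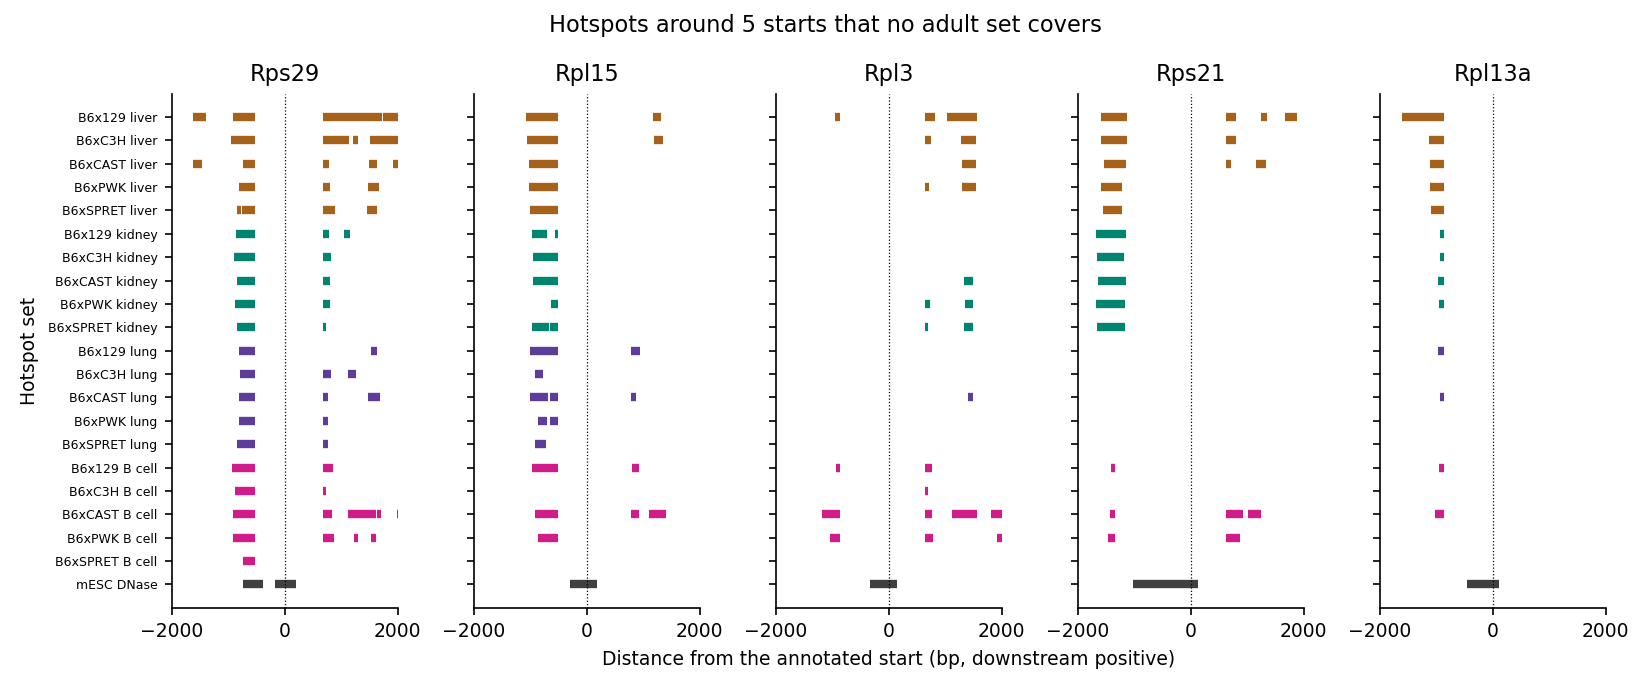
Hotspots (bars) of the 20 adult sets and the mESC set around the 5 member starts that no adult set covers, against the distance from the annotated start in bp, with colours for the tissue. In Rps29 the bars end at the same place, 528 bp before and 673 bp after the start, in the different hybrids and tissues, and only the mESC bar lies over the start.

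Rpl35 was the remaining member. Its start was covered in 17 adult sets but not in mESCs, where the nearest hotspot was 158 bp wide. In lung the hotspot nearest to its start was 900 bp wide in B6x129, 71 bp in B6xC3H, 1599 bp in B6xCAST, 60 bp in B6xPWK and 685 bp in B6xSPRET, and the 71 and 60 bp hotspots, like that of B6xSPRET, did not cover the start. These 2 values are of the nearest piece alone, as 3 hotspots lay within 1 kb in both B6xC3H and B6xPWK lung and together covered 705 and 631 bp. In liver it measured 1775, 1643, 1160, 515 and 1206 bp in the same order of hybrids. In kidney it stayed between 1101 and 1206 bp, so the lung values spread over a wider range than those of the other tissues. The difference in lung was −1.50 ± 0.45 on the log2 scale (SE, limma, adjusted p = 0.0586). It did not pass the threshold in these 20 sets, and its size depended on how width was measured. As base pairs covered within 1 kb the difference was −0.31 (limma, adjusted p = 0.0479), as the widest hotspot −0.36 (adjusted p = 0.208) and at FDR 1% −0.64 (adjusted p = 0.181). It was −0.97 without B6xC3H (limma, adjusted p = 0.244), −1.03 without B6xPWK (adjusted p = 0.262) and −1.99 without B6xCAST (adjusted p = 0.0405). Where a promoter needed a hotspot in 16 sets only, it was −1.49 (limma, adjusted p = 0.043).

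Where the start was covered, the hotspot spread over both flanks. The median reach over the 49 members covered in all 20 sets was 490 bp upstream and 602 bp downstream, against 517 and 609 bp over all promoters covered throughout. The members' median width per set averaged 1204 ± 201 bp in B cells (SD, n = 5 hybrids), 1175 ± 294 bp in liver, 1051 ± 89.7 bp in kidney and 1014 ± 121 bp in lung. The same medians over all promoters with a hotspot were 1113 ± 238, 1095 ± 287, 943 ± 120 and 836 ± 188 bp in that order. The tissue means of the members differed by less than the SD between the B cell sets. In every adult set the members' median stood above that of all promoters with a hotspot there, at the 50.5th to 71.8th percentile of width. These promoters include ones that lack a hotspot in other sets. Among promoters with a hotspot in all 20 sets, the median of the mean widths was 1113 bp for members and 1126 bp for all.

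The sets of a tissue differed between hybrids. In liver the members' median width was 1599 bp in B6x129 and 1363 bp in B6xC3H but 1017 bp in B6xCAST, 922 bp in B6xPWK and 974 bp in B6xSPRET. All promoters were likewise widest in B6x129 and B6xC3H, at 1460, 1352, 909, 887 and 866 bp in that order of hybrids. In B cells the members measured 1377, 934, 1397, 1250 and 1064 bp in the same order of hybrids. Widths were centred on the median promoter of each set before tissues were compared.

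**Figure D2:**
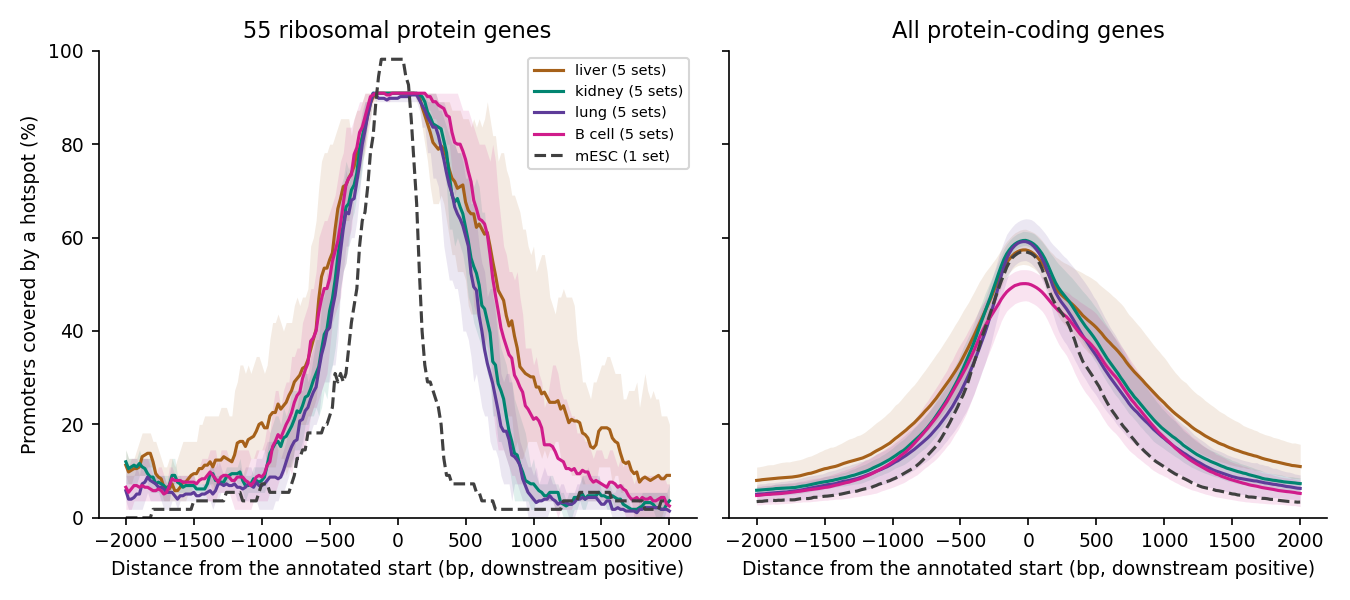
Share of promoters (%) in which a hotspot covers each position, against the distance from the annotated start in bp, for the 55 members (left) and all protein-coding genes (right). Lines are means of 5 sets per tissue with the range shaded, and the dashed line is the mESC set. At the start the members reach 89.8 to 90.9% in each adult tissue, and the mESC curve is narrower than the adult curves.

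Away from the start, the share of members covered by a hotspot varied between tissues. These shares were not centred on the median promoter of each set and were not tested. At 500 bp downstream of the start, hotspots covered 76.7 ± 10.6% of the members in B cells, 67.6 ± 15.9% in liver, 62.2 ± 8.37% in kidney and 60.4 ± 15.2% in lung (SD, n = 5). At 1 kb downstream they covered 30.2 ± 17.5% in liver, 21.1 ± 14.4% in B cells, 7.27 ± 4.45% in kidney and 4.00 ± 3.94% in lung. The ranges of liver (16.4 to 58.2%) and lung (0 to 9.09%) did not overlap, while that of B cells (3.64 to 32.7%) overlapped all of the others. Over all promoters the shares there were 24.6% in liver, 17.2% in B cells, 18.8% in kidney and 17.0% in lung. The mean of the members at 1 kb downstream was thus below that of all promoters in kidney and lung and above it in liver and B cells. At 1 kb upstream the members were above all promoters in liver only (20.4% against 16.5%). There they were below in B cells (8.73% against 11.9%), kidney (8% against 12.9%) and lung (6.91% against 11.6%).

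Among the 51 members with a hotspot in all 20 sets, Rpl7 was the widest, at a geometric mean of 2709 bp over the 20 sets, followed by Rps27a (1644 bp), Rpl27a (1615 bp), Rpl37 (1550 bp) and Rpl30 (1488 bp). Rpl7 ranged from 2101 to 3169 bp and exceeded 2 kb in every set, with a median reach of 2051 bp upstream and 843 bp downstream. Rps27a encodes a ribosomal protein fused to ubiquitin, and another gene starts within 1 kb of it. Such a neighbouring start was present at 10 members (18.2%), against 10.3% of all promoters, namely Rpl4, Rpl7a, Rpl9, Rpl12, Rpl15, Rps10, Rps18, Rps25, Rps27a and Rps28. At these 10 a hotspot cannot be assigned to one of the genes.

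Of the same 51 members the narrowest was Rps29, at 318 bp, whose value is that of a piece beside the start. It was followed by Rps15 (668 bp), Rps16 (683 bp), Rps2 (774 bp) and Rpl35 (835 bp). Rps16 lay between 521 and 998 bp and Rps2 between 615 and 1078 bp, whereas Rps15 lay between 420 and 917 bp in 19 sets and at 1796 bp in B6x129 liver. A single set also decided the highest value of all, 15506 bp at Rpl18 in B6x129 liver, where the hotspot of B6xC3H liver was 2170 bp wide and those of the other 18 sets lay between 529 and 1783 bp.

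**Figure D3:**
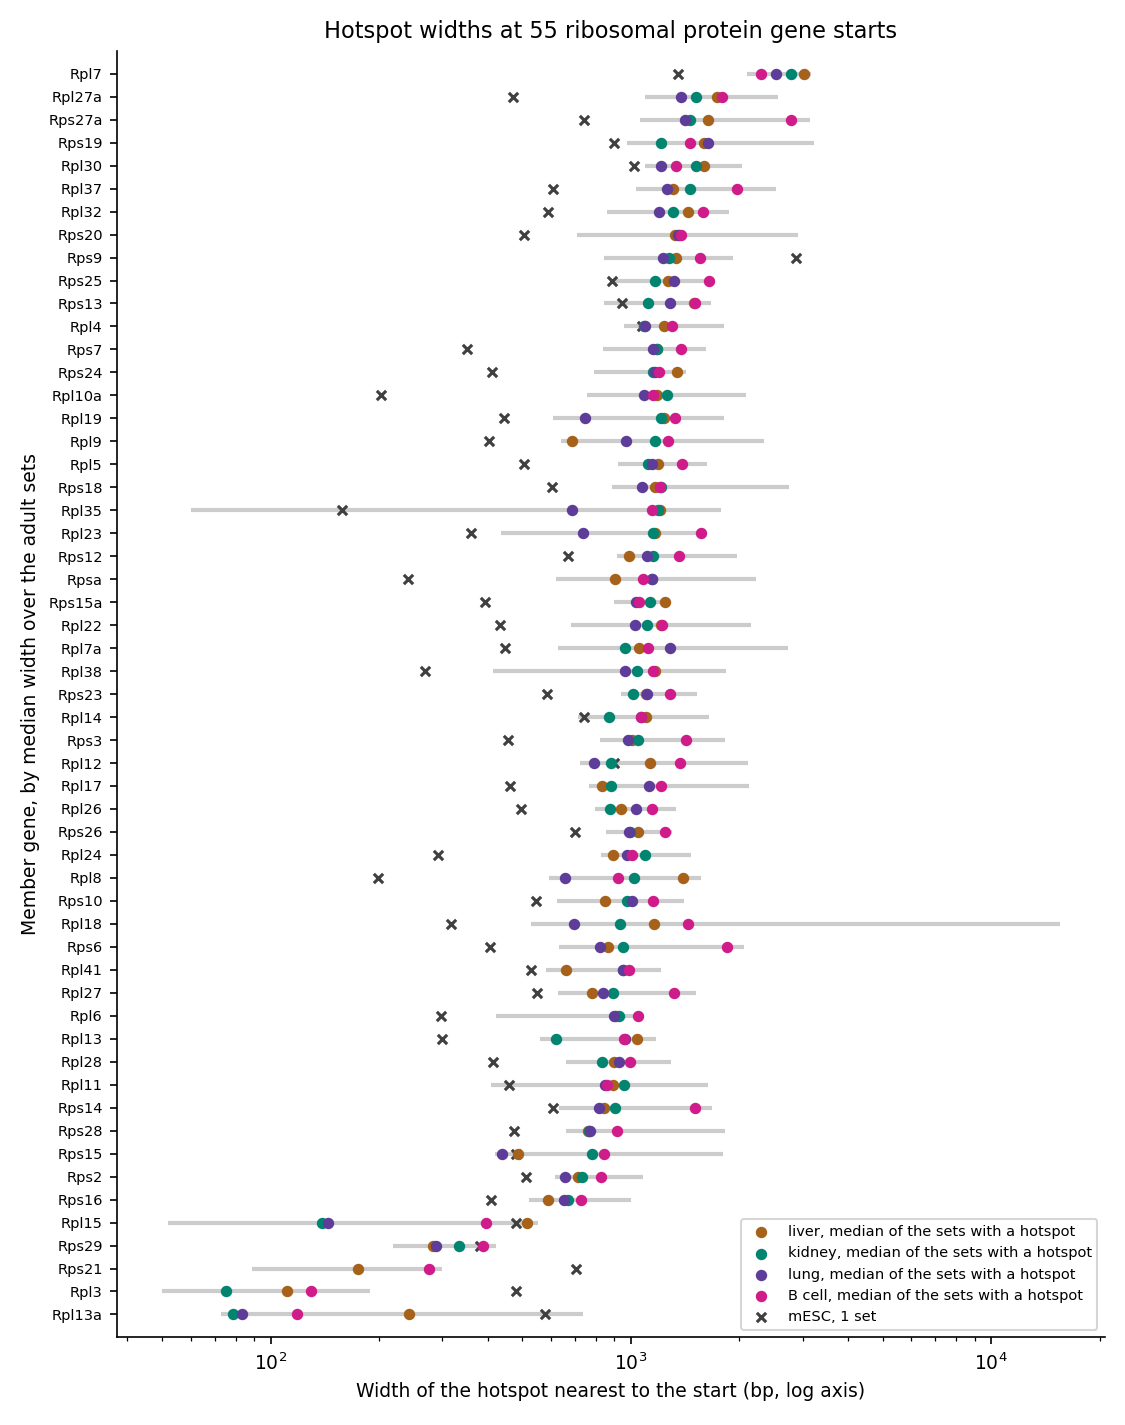
Width in bp (log axis) of the hotspot nearest to the start of each of the 55 members, ordered by the median over the adult sets. Points are tissue medians over the hybrids with a hotspot, grey lines run from the lowest to the highest adult set, and crosses are the single mESC set. Rpl7 stands at the top, the 5 genes without a covered start stand at the bottom, and most crosses lie left of the grey lines.

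In each set a hotspot also carries a −log10 FDR, which has a ceiling of 100. The share of member hotspots at the ceiling was 84.8 ± 9.94% in B cells (SD, n = 5), 82.2 ± 9.24% in liver, 75.9 ± 8.20% in kidney and 64.3 ± 25.4% in lung. The share over all promoters with a hotspot was 54.7%, 59.8%, 43.8% and 35.7% in that order, and over all hotspots of a set 9.33%, 12.4%, 4.46% and 2.92%. The members were above all promoters in each of the 20 sets. The lowest set was B6xC3H lung, where 26.9% of member hotspots and 13.5% of all promoters were at the ceiling and which held 152006 hotspots, the fewest in lung.

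The ceiling was reached in all 20 sets by 9 members, Rpl7a, Rpl22, Rpl26, Rpl37, Rps7, Rps12, Rps24, Rps26 and Rpsa, the laminin receptor precursor of the small subunit. At the other end stood 4 members that never reached it, Rpl3, Rpl15, Rps21 and Rps29, all without a covered start. Among the members covered in all 20 sets the lowest values were 21.8 at Rpl19 in B6xSPRET lung, 27.0 at Rpl4 in B6xC3H lung, 37.0 at Rps14 in B6xC3H lung and 41.5 at Rpl7 in B6xSPRET lung. Rpl19 reached the ceiling in 7 of 20 sets and Rpl4 in 6, so that a wide hotspot such as that of Rpl4 (957 to 1817 bp) need not reach it. These values are not ranks, as sets differ in their share at the ceiling. Ranked among all hotspots of its set, Rpl4 in B6xC3H lung stood at the 92.1st percentile and Rpl19 in B6xSPRET lung at the 86.4th.

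Whether a member's hotspot was wider in 1 tissue was tested on log2 width by limma over all 10620 promoters with a hotspot in every adult set, of which 51 were members. Each tissue was compared with the mean of the other 3, with the hybrid as a term, and p-values were adjusted by Benjamini-Hochberg over the 10620 promoters. The 4 comparisons share their sets, so a promoter wide in one tissue tends to be lower in the other comparisons. Because libraries were pooled, the p-values rest on the spread between sets that remains after the tissue and hybrid terms, and not on that between libraries or mice.

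In B cells 7 of 51 members were wider (13.7%, against 9.79% of all promoters) and 1 was narrower (1.96%, against 12.2%). In liver 4 members were narrower (7.84%, against 10.8%) and 0 were wider (against 10.4%), with 0 wider at an unadjusted p under 0.05 against 1695 of the 10620 promoters. In kidney 0 members were called in either direction (4.02% of promoters wider and 3.40% narrower), with 0 wider and 3 narrower at an unadjusted p under 0.05 against 1285 and 1186 of the 10620 promoters. In lung 0 were called as well (3.97% and 2.59% of promoters), with 7 wider and 4 narrower unadjusted against 1520 and 1020 of the promoters. The shares of members called wider in B cells and narrower in liver were near those of all promoters. The members' median difference was 0.09 in B cells against −0.01 for all promoters tested, −0.06 against −0.03 in liver, −0.05 against 0.00 in kidney and 0.09 against 0.05 in lung, each on the log2 scale.

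**Figure D4:**
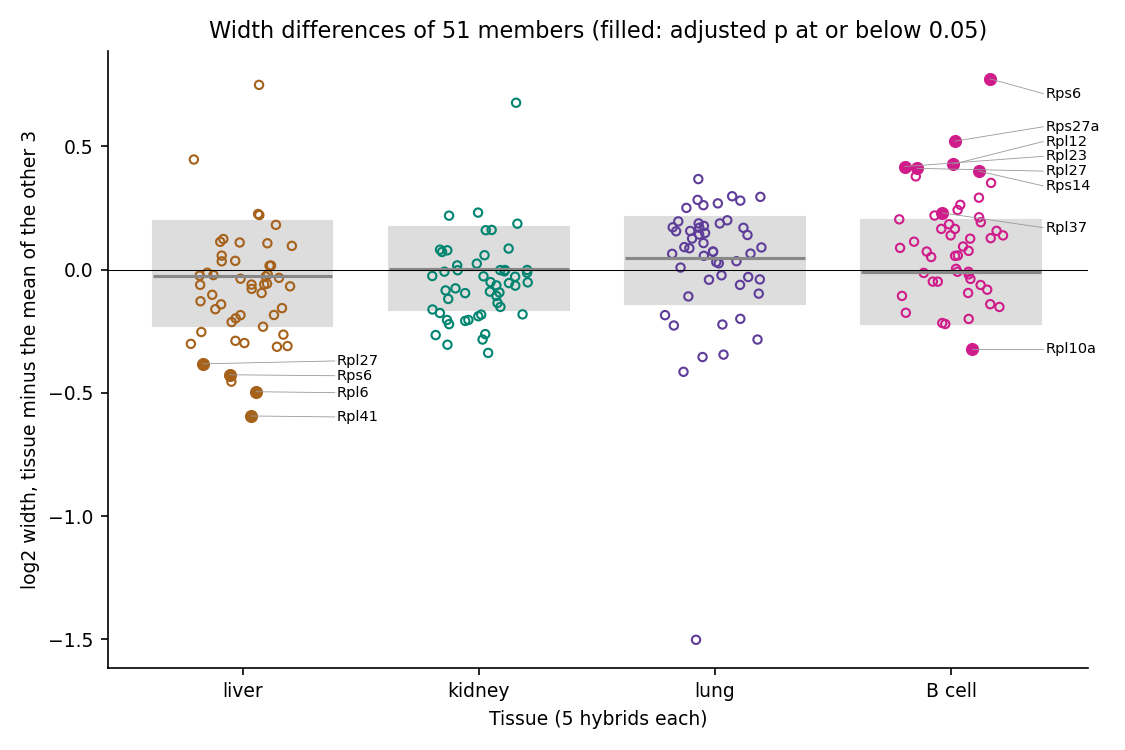
Difference in log2 width of each of 51 members between a tissue and the mean of the other 3, from the limma fit, where filled points passed an adjusted p of 0.05. Grey boxes span the quartiles of all 10620 promoters and grey lines their medians. The 7 filled points above 0 in B cells and the 4 below 0 in liver stand outside the grey boxes, and the open point near −1.5 in lung is Rpl35.

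Rps6, the small subunit protein phosphorylated by S6 kinase, had the greatest difference among the called members. Its hotspot measured 1846 bp in B6x129, 1751 bp in B6xC3H, 2004 bp in B6xCAST, 2060 bp in B6xPWK and 1226 bp in B6xSPRET B cells. In the other 15 sets it measured 631 to 1544 bp with a median of 862 bp, so that 4 of 5 B cell sets lay above all of them. The log2 difference was 0.77 ± 0.12 (SE, limma, adjusted p = 0.000265), a ratio of 1.71. Rps6 passed under each alternative processing and without each hybrid.

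Rpl27, a large subunit protein, measured 1520, 849, 1315, 1353 and 1232 bp in B cells of B6x129, B6xC3H, B6xCAST, B6xPWK and B6xSPRET. In the other 15 sets it measured 628 to 1192 bp with a median of 838 bp, so that 4 of 5 B cell sets lay above all of them. The log2 difference was 0.41 ± 0.10 (SE, limma, adjusted p = 0.00848), a call lost only without B6xSPRET among the hybrids. Rps27a measured 3141, 1612, 2784, 3137 and 1349 bp in B cells in the same order, against 1060 to 1964 bp elsewhere (median 1565 bp). Its B cell values comprised 3 above all other sets and 2 within their range, and the difference was 0.52 ± 0.15 (limma, adjusted p = 0.0188), a call lost without B6x129, B6xCAST or B6xPWK. Counted as base pairs covered within 1 kb of the start, the difference at Rps27a was 0.02 (limma, adjusted p = 0.884).

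Rpl23, which can bind MDM2 outside the ribosome, measured 1567, 942, 1576, 1584 and 1229 bp in B cells against 436 to 1477 bp elsewhere (median 952 bp). The 3 widest B cell sets lay above all other sets, and the difference was 0.42 ± 0.12 (limma, adjusted p = 0.0177), a call lost without B6x129, B6xPWK or B6xSPRET. Rpl12, a protein of the stalk base, measured 1368, 955, 2088, 1385 and 1355 bp in B cells against 723 to 2119 bp (median 810 bp). All 5 B cell values exceeded that median and none exceeded the whole range (0.43 ± 0.14, limma, adjusted p = 0.0452). The call at Rpl12 was lost as base pairs covered (0.22, limma, adjusted p = 0.125) and without B6xC3H, B6xCAST, B6xPWK or B6xSPRET.

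Rps14, a protein of the small subunit platform, measured 1667, 836, 1509, 1677 and 771 bp in B cells against 630 to 1599 bp elsewhere (median 842 bp). Only B6x129 and B6xPWK exceeded that range, and the other 3 B cell sets lay within it (0.40 ± 0.14, limma, adjusted p = 0.0459). Measured from the 5′ end of the gene record in place of the representative transcript, the difference at Rps14 reversed to −0.64 (limma, adjusted p = 0.348). Its call was also lost under quantile normalisation (limma, adjusted p = 0.0534) and without B6x129, B6xC3H, B6xCAST or B6xPWK. Rpl37 measured 1975, 1575, 2007, 2041 and 1635 bp in B cells against 1031 to 2530 bp (median 1308 bp). All of its B cell values lay inside the range of the other tissues, above their median (0.23 ± 0.08, limma, adjusted p = 0.0491). The call at Rpl37 held in 3 of 14 alternatives and was lost at FDR 1% (limma, adjusted p = 0.0546), without the hybrid term (0.214), as base pairs covered (0.11, adjusted p = 0.267) and without B6xC3H, B6xCAST, B6xPWK or B6xSPRET.

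Rpl10a was the 1 member called narrower in B cells. It measured 1148, 757, 1312, 1054 and 1209 bp there and 847 to 2088 bp in the other 15 sets, with a median of 1248 bp. The B cell values lay inside that range except for B6xC3H (−0.32 ± 0.09, limma, adjusted p = 0.016), and the call was lost without B6x129, B6xC3H, B6xCAST or B6xPWK.

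In liver Rpl41, which encodes a very short and highly basic peptide of the large subunit, had the greatest difference among the called members. It measured 977 bp in B6x129, 1034 bp in B6xC3H, 661 bp in B6xCAST, 605 bp in B6xPWK and 581 bp in B6xSPRET, against 873 to 1213 bp elsewhere (median 955 bp). The 3 narrowest lay below all other sets, and the remaining 2 lay within their range (−0.59 ± 0.11, limma, adjusted p = 0.000936). The downstream edge of Rpl41 lay 660 bp from the start in every B cell set and in B6xC3H, B6xCAST and B6xSPRET lung. The median downstream reach over the adult sets was also 660 bp, so this edge too was shared to the base. How it came about and its part in the difference were not tested. Rpl6 measured 1057, 1029, 911, 461 and 423 bp in liver against 530 to 1061 bp (median 926 bp). Only B6xPWK and B6xSPRET lay below that range (−0.50 ± 0.15, limma, adjusted p = 0.0319). The call at Rpl6 was lost under quantile normalisation (limma, adjusted p = 0.0602), as base pairs covered (−0.20, adjusted p = 0.265) and without B6x129, B6xC3H, B6xPWK or B6xSPRET.

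Rpl27 and Rps6, both wider in B cells, were also narrower in liver, in comparisons that share these sets. Rpl27 measured 1192, 1109, 706, 779 and 628 bp in liver against 651 to 1520 bp (median 992 bp), with 1 liver set below all others (−0.38 ± 0.10, limma, adjusted p = 0.0145), a call lost without B6x129 or B6xPWK. Rps6 measured 1099, 1508, 862, 787 and 814 bp against 631 to 2060 bp (median 977 bp), with all liver sets inside that range (−0.43 ± 0.12, limma, adjusted p = 0.0208), a call lost as base pairs covered (−0.36, adjusted p = 0.0985) and without B6x129 or B6xCAST. At each of the 4 genes called in liver, B6x129 and B6xC3H, the liver sets with the widest median promoter, had the 2 highest liver values.

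The liver calls depended on centring, as did those of Rpl10a, Rpl12, Rpl23, Rpl37 and Rps14 in B cells, all lost without it. Without it the median difference of all promoters moved to 0.16 in liver and −0.21 in lung, and 0 members were narrower in liver and 4 were wider in B cells (Rpl5, Rpl27, Rps27a and Rps6). With a hybrid left out, the members called wider in B cells numbered 6 without B6x129, 4 without B6xC3H, 3 without B6xCAST, 2 without B6xPWK and 3 without B6xSPRET, and those narrower in liver 2 without B6x129 or B6xPWK, 3 without B6xC3H or B6xSPRET and 4 without B6xCAST. With each hybrid left out in turn, Rpl10a kept its call only without B6xSPRET.

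**Figure D5:**
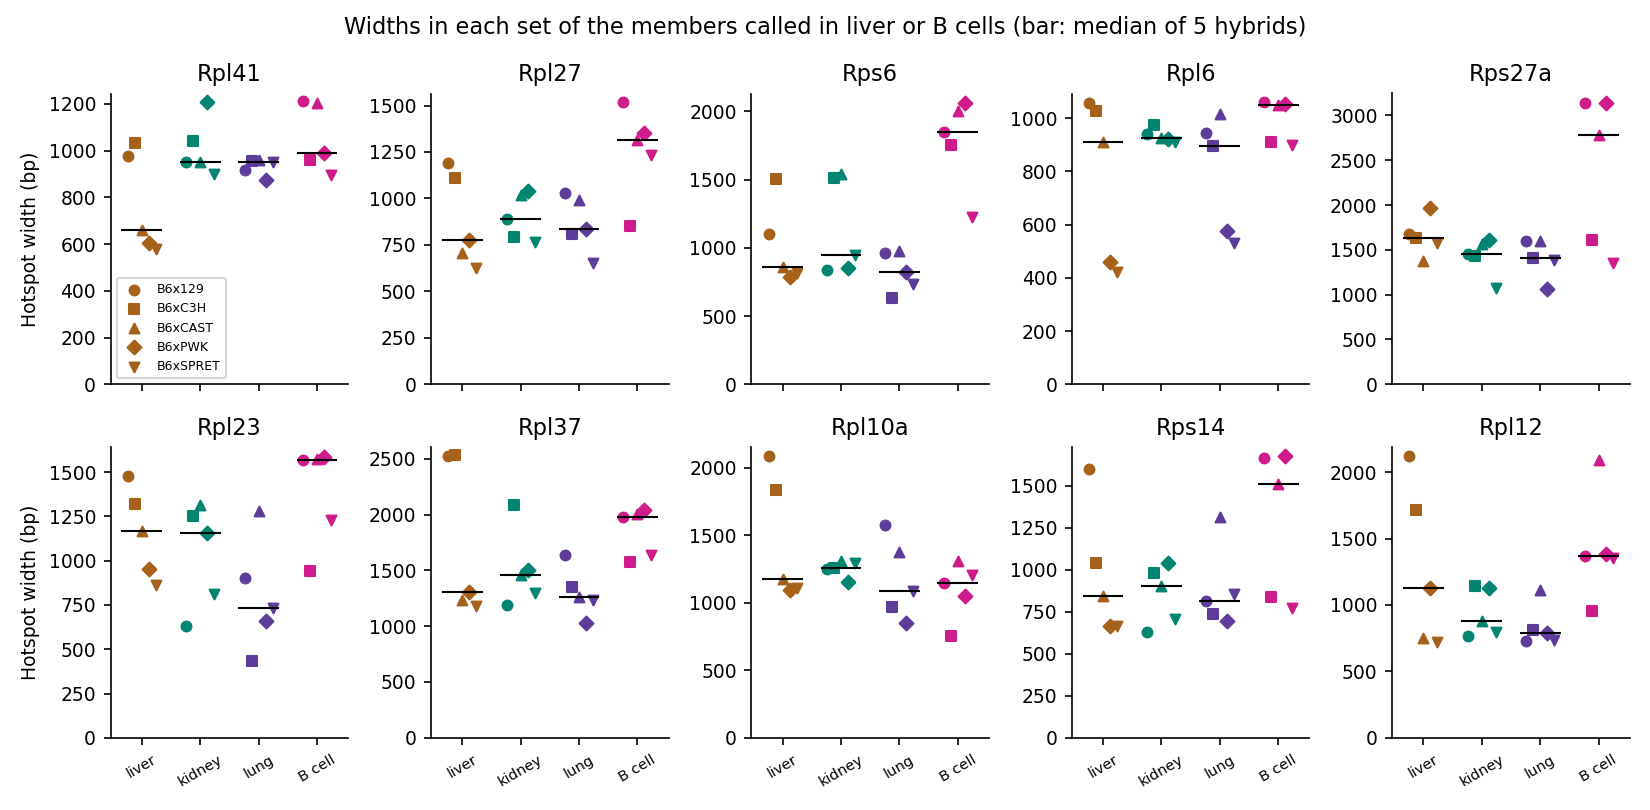
Hotspot width in bp of the 10 members called in liver or B cells, in each of the 20 adult sets. Colours mark tissues, symbols mark hybrids and bars are medians of 5 hybrids. At Rps6 the B cell sets lie between 1226 and 2060 bp, and at Rpl41 the 3 narrowest sets are liver sets at 581 to 661 bp.

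In B cells, 4 of 21 further ribosomal protein genes were wider and 0 narrower, and 2 of 28 ribosome biogenesis factors were wider and 2 narrower. Proteasome subunits gave 1 wider of 31, and complex I subunits 0 in either direction of 31. In liver, 1 of the 21 further ribosomal protein genes was wider and 1 narrower, and 3 of 31 complex I subunits were wider. Elongation factors gave 1 wider and 2 narrower of 8 in liver and 1 narrower in B cells, biogenesis factors 1 wider and 1 narrower in liver, and proteasome subunits 1 narrower in liver. Among the members, the wider calls in B cells included 4 of 28 large subunit and 3 of 23 small subunit genes, and the narrower calls in liver 3 and 1. Differences between these groups were not tested.

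Between hybrids, no member width passed the test. An F-test in limma over the 5 hybrids with the tissue as a term called 0 of 51 members and 10 of 10620 promoters (0.0942%), and 3 members had an unadjusted p under 0.05 (5.88%, against 12.3% of promoters). The smallest p-values among members were at Rps13 (limma, unadjusted p = 0.000613, adjusted p = 0.126), Rpl37 (0.00107, adjusted p = 0.149), Rpl11 (0.018, adjusted p = 0.332), Rpl27a (0.07, adjusted p = 0.432) and Rps3 (0.0813, adjusted p = 0.446). At Rps13 the hotspot of B6xSPRET measured 1503 bp in B cells, 1500 bp in liver, 1471 bp in lung and 1345 bp in kidney. That of B6xC3H measured 869, 1571, 843 and 1192 bp in the same order, so the hybrids overlapped.

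In mESCs 55 of 55 members had a DNase-seq hotspot within 1 kb, against 65.2% of promoters, and it covered the start in 54. These hotspots were narrow. Their median width was 480 bp, against 776 bp over all promoters with a hotspot, and the median member stood at the 24.7th percentile of promoter width. Their median −log10 FDR was 11.5, at the 83.3rd percentile of all hotspots of the set, whereas the median promoter stood at the 88.6th. Of the 49 members whose start was covered in every set, 42 (85.7%) were narrower in mESCs than in each of the 20 adult sets, against 31.6% of the 8844 promoters covered throughout. The mESC set is a single one and was made from other cells and libraries, so the difference was not tested. The paper gives lower signal-to-noise scores for the mESC DNase-seq samples than its adult mean. Of all mESC hotspots 0.0651% were at the −log10 FDR ceiling, against 1.20 to 14.2% in the adult sets. The part of signal strength in the narrow widths was not tested.

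The other ribosomal protein genes had a median width of 570 bp in mESCs and the elongation factors 523 bp, whereas the ribosome biogenesis factors had 709 bp, the proteasome subunits 702 bp and the complex I subunits 764 bp. In the adult sets the medians of these groups' mean widths were 1155, 1441, 1175, 1087 and 1065 bp, against 1113 bp for the members. The narrowest members in mESCs were Rpl35 (158 bp), Rpl8 (199 bp), Rpl10a (203 bp) and Rpsa (241 bp), which had medians of 985 to 1194 bp in the adult sets. The 7 members of the 49 that were not narrower than every adult set were Rpl4, Rpl11, Rpl12, Rpl14, Rps9, Rps13 and Rps15. Of these Rps9, at 2868 bp the widest member in mESCs, exceeded its adult range of 840 to 1926 bp, and the other 6 lay within theirs, such as Rpl4 at 1073 bp against 957 to 1817 bp.

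CTCF, the zinc finger protein that binds insulators and loop anchors, had a hotspot within 1 kb of 21 members in mESCs (38.2%, Wilson 95% interval 26.5 to 51.4), of which 12 covered the start. The share over all promoters was 26.9%, and over promoters with a DNase-seq hotspot in mESCs, as all members had, it was 38.1%, close to that of the members. The 10 with the highest −log10 FDR were Rpl5, Rpl37, Rpl14, Rpl11, Rpl26, Rpl10a, Rpl38, Rpl13a, Rpl32 and Rpl27. Rpl5 and Rpl11, which form a particle with 5S ribosomal RNA, had CTCF hotspots of 490 and 580 bp over the start. Those of Rpl7 (470 bp), Rpl13 (201 bp) and Rps2 (152 bp) lay 874, 749 and 865 bp upstream.

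RNA-seq tables with RSEM expected counts were given for 4 liver, 4 kidney, 4 lung and 5 B cell libraries. They held 283725 to 809337 counts in total. The 55 members took up 0.226 ± 0.0599% of the counts in B cells (SD, n = 5), 0.107 ± 0.00806% in lung, 0.0820 ± 0.00664% in kidney and 0.0694 ± 0.00550% in liver (n = 4 each). Each B cell library, at 0.160 to 0.313%, lay above every library of the other tissues, which reached 0.114% in lung. The number of members with at least 1 count was 51 to 55 in B cells, 38 to 46 in lung, 44 to 51 in kidney and 37 to 39 in liver. The highest member was Rpl5, Rpl18, Rpl27a or Rps25, depending on the library. Which strand these tables count is in doubt, as the strand and annotation used are not given in the sources used here. For this reason, and with totals of 198 to 2533 counts on 55 genes, these shares were described and not tested. They were not read as the mRNA levels of the genes.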

How the data were processed

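Deposited hotspot sets of 20 hybrid and tissue conditions, of mESC DNase-seq and of mESC CTCF ChIP-seq were used with 17 RNA-seq tables. The authors trimmed reads with Trimmomatic, aligned them with BWA to mm10 and a strain-specific genome, pooled the uniquely aligned reads of a condition and used hotspot2 (FDR 5%). The deposited hotspot files give positions in mm10 and, in the 9th column, −log10 FDR with a ceiling of 100. Whether both mESC DNase-seq samples were pooled is not given in the sources used here. The deposited RNA-seq tables hold the expected count and TPM that the authors obtained with STAR and RSEM. The hybrid of 1 B cell RNA-seq library differs between sources, so these libraries were grouped by tissue only. Reads per hotspot are not in the files, and intervals cover counting error only.

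Starts were those of 1 representative protein-coding transcript per gene in GENCODE M21 (the best-ranked principal isoform), and 55 of 55 members matched. Hotspots within 1000 bp were assigned, and log2 width of the nearest was centred on each set's median promoter and fitted with limma 3.58.1 (R 4.3.3, tissue and hybrid, moderated variance with trend, adjusted p threshold 0.05). On simulated data for the liver comparison with 10620 promoters and 200 changed, a log2 difference of 0.5 was recovered in 28.5% and of 1 in 82.0%, with 8.06% and 3.53% of calls false. The simulated noise was independent between sets, and far more promoters were called in the liver data themselves (1100 wider and 1146 narrower). These rates need not hold for the observed widths. Motifs were searched on both strands of RefSeq promoters (GRCm38.p6). Python 3.11.15, numpy 2.4.6, pandas 2.3.3, scipy 1.17.1 and matplotlib 3.10.9 were used.

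Members, comparison lists and the rule for named genes (per tissue the 5 wider and 5 narrower called members with the greatest difference, the 5 smallest hybrid p-values, the 5 widest and narrowest, members lacking a hotspot in a set, the 10 lowest below the ceiling, the 10 highest with CTCF) were chosen with earlier results of these data known. Members named beyond it were chosen after their values were seen. Alternatives were other scalings, width measures, starts, windows, FDR 1% and leaving out each hybrid or tissue. Promoters with the start covered in every set, and the pyrimidine run, were added after seeing the data. Allelic counts were not analysed here.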

Additional observations from a re-analysis of the deposited data

Results flagged for a closer look

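Groups of 5 hybrids, or of 4 or 5 RNA-seq libraries, were searched for a value far from the others in 28 comparisons: the number of members with a hotspot, their median width, their share at the −log10 FDR ceiling, the widths of called members and the RNA-seq shares. Of these, 1 stood apart, and chance alone gives about 1 in 20. In kidney, 54 members had a hotspot within 1 kb in B6xPWK and 53 in each of the other 4 hybrids, a difference of 1 gene.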

How the results depend on the processing

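Counts of called members moved by over 1.5 times under several settings, and also when any of the hybrids was left out. Measured as base pairs covered within 1 kb, 1 member was wider in liver, 2 were narrower in kidney, and 3 were wider and 4 narrower in lung. From the 5′ end of the gene record, 2 were wider in liver, 1 was wider and 1 narrower in kidney, 1 was narrower in lung and 2 were narrower in B cells, and the difference of Rps14 in B cells reversed to −0.64. With promoters present in at least 16 sets, Rpl15, whose value is a piece beside the start, entered as the 1 wider in liver and the 1 narrower in kidney, and 1 was narrower in lung (Rpl35). Without centring, 0 were narrower in liver, and 4 were wider and 0 narrower in B cells. The cause of these moves was not tested. Leaving out 1 hybrid at a time gave 2 to 4 narrower in liver, 0 to 1 narrower in lung (Rpl35, without B6xCAST), 2 to 6 wider and 0 to 1 narrower in B cells, and 0 in every other case. In TPM, the members' RNA-seq share was 0.322% in B cells, 0.147% in lung, 0.103% in kidney and 0.0886% in liver. From 100 bases before the start, CACGTG was in 2.22% of members and 4.99% of promoters. Presence stayed within 1.5 times its count under a window of 500 bp, any annotated start and FDR 1%. The smaller window leaves out the pieces at Rpl15 and Rps29, which end 520 and 528 bp before the start. Median width stayed within the SD between hybrids under any annotated start and FDR 1%, and was not measured in the smaller window. The hybrid was a block in the fit, and without it 5 members were narrower in liver and 6 wider in B cells. Depth per set was not used here, so its part in the widths was not tested.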
